A study of Mus musculus with 4 samples.

Results

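The regions described here are the read-rich islands under 4 kb of a DNase-seq table from mouse lymphoid tissue inducer (LTi) cells. DNase-seq reads out open chromatin from the places where the nuclease DNase I cuts, and an island is a run of neighbouring 200 bp windows that a peak caller joined. A read-rich island has 51 to 200 reads on the peak side of the table and a width under 4000 bp, and lies outside mitochondrial DNA. This rule found 616 of 16581 islands. They were thus selected on measured values, namely peak-side reads and width, and those values are given below as a description.

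LTi cells were sorted from Peyer's patches of C57BL/6 mice as CD127+ CCR6+ cells without lineage markers, KLRG1, NK1.1 or NKp46. The Ctrl group (Tcf7+/+) and the Tcf7-KO group (Tcf7fl/fl with a Cre transgene that is not restricted to LTi cells) have 2 libraries each. Each library came from 300 cells, which 0.3 U of DNase I cut for 5 minutes. The labels give no ages. For every island the table has 1 peak-side and 1 control-side read count, and no source ties either side to a genotype or a library. The genotypes are therefore not compared, there are no replicate values, and no difference below was tested.

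Promoters of broadly expressed genes commonly lie in CpG islands, stretches of DNA that keep the CG dinucleotide and a high GC content. Such promoters are bound in most cell types by general activators such as SP/KLF, NF-Y, ETS, NRF1 and YY1 proteins and are held open around the transcription start. Cell type genes rely more on enhancers, which lie inside genes or between them. A promoter from which a pair of neighbouring genes is read in opposite directions is called head-to-head or bidirectional.

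The promoters below show what the DNA of these islands looks like. They were picked for 8 motifs in turn (SP/KLF, NF-Y, ETS, NRF1, YY1, CREB/ATF, AP-1, TATA box). Each time the gene was taken whose read-rich island has most peak-side reads, among genes not yet picked whose promoter window lies whole within the island and has a match in the bases printed. The head-to-head promoter of Hspe1 was added, and both choices were made after the values were seen. Each line gives the 250 bases before an annotated start from RefSeq (GRCm38.p6, the assembly of mm10), 5′ to 3′ in the direction of the gene. Capitals mark matches, on either strand, to any of 15 motifs. These are CCGGAAG (ETS), GCATGCG (NRF1), AAGATGGCG (YY1), GGGCGGG (SP/KLF), CCAATNAG (NF-Y), TGACGTCA (CREB/ATF), TGANTCA (AP-1), CACGTG (E-box), TATAAA (the TATA box), CTTTGAT (TCF/LEF), TGTGGTT (RUNX), TAGGTCA (ROR), GGANTTTCC (NF-kB), TTCNNTTTC (IRF) and TTCNNNGAA (STAT). Matches can share bases, as the ETS matches on opposite strands of the Hspe1 promoter do. A match is a description of the letters and not a shown binding site.

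Dnpep encodes aspartyl aminopeptidase, and its promoter (chr1:75317018-75317267, minus strand) was chosen for SP/KLF. The LOC108167694 promoter (chr9:124423401-124423650, minus strand) was chosen for CREB/ATF, and its island has the most reads of all.
Dnpep: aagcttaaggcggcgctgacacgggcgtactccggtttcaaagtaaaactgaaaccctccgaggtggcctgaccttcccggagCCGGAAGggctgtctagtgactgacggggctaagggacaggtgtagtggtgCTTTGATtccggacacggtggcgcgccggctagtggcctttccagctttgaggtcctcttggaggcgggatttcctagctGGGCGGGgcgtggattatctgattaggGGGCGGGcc
LOC108167694: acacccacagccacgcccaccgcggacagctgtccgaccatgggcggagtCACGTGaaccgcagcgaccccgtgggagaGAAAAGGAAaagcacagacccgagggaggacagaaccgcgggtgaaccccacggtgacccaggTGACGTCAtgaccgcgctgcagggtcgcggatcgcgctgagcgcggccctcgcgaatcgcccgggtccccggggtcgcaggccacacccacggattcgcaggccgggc

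Cep57 encodes a centrosomal protein, and its promoter (chr9:13827054-13827303, minus strand) was chosen for NF-Y and also holds a CREB/ATF match. Eif5a encodes a translation factor, and its promoter (chr11:69920631-69920880, minus strand) was chosen for ETS. Sf1 encodes a splicing factor that binds the branch point, and its promoter (chr19:6363440-6363689, plus strand) was chosen for NRF1.
Cep57: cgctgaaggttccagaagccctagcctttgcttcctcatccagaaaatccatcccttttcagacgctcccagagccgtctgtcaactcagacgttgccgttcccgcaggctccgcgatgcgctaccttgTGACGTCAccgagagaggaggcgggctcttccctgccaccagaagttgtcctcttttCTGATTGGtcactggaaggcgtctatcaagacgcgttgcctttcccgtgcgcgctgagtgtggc
Eif5a: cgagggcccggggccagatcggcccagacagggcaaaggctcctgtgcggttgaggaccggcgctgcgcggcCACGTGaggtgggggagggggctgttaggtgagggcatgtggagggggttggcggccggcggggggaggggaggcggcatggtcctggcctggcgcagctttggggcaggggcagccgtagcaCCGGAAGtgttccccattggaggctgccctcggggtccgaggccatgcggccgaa
Sf1: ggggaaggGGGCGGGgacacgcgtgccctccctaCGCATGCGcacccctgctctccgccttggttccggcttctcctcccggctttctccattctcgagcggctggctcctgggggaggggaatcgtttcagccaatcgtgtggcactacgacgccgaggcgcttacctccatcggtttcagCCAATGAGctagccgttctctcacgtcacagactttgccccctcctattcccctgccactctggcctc

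Hdlbp encodes the RNA-binding protein vigilin, and its promoter (chr1:93478378-93478627, minus strand) was chosen for YY1. Hnrnpa1 encodes a splicing regulator, and its promoter (chr15:103240147-103240396, plus strand) was chosen for AP-1. Gsk3b encodes the kinase that marks beta-catenin for destruction, and its promoter (chr16:38088751-38089000, plus strand) was chosen for the TATA box.
Hdlbp: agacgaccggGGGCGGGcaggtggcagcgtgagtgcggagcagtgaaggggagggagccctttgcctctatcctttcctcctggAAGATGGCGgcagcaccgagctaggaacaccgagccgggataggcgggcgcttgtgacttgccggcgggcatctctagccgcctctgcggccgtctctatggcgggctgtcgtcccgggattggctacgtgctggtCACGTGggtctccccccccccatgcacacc
Hnrnpa1: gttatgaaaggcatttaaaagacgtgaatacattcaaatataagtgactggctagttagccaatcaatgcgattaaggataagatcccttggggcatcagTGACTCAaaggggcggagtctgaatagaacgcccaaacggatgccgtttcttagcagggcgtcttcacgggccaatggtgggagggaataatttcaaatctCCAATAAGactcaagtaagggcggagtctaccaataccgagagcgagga
Gsk3b: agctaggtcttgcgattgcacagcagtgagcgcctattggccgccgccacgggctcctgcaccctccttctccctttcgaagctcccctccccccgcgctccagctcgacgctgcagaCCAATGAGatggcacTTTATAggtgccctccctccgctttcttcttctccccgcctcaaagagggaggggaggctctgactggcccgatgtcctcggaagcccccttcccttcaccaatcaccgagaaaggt

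Hspe1 encodes the mitochondrial co-chaperonin, and its promoter (chr1:55087898-55088147, plus strand) is shared with Hspd1, which encodes the chaperonin itself and is read the other way.
Hspe1: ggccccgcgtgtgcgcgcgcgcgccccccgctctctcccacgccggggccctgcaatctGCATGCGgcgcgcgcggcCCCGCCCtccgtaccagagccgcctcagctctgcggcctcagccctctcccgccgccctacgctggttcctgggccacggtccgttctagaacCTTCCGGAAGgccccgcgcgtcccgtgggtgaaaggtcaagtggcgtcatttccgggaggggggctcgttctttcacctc

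Most of the read-rich islands had read counts close to the lower limit of the rule. The peak side had a median of 59 reads (interquartile range 54 to 67, range 51 to 168), and 544 islands had 51 to 75 reads, 61 had 76 to 100 and 11 had more. The control side, which the rule did not use, had a median of 89 reads (76 to 109, range 36 to 618), against 27 over all islands. The median width was 2400 bp (1800 to 3000, range 200 to 3800), and the median density was 25.4 peak-side reads per kb (range 13.4 to 525), against 10.6 over all islands. The read-rich islands covered 1.51 Mb, which is 4.41% of the base pairs in islands, and held 9.23% of peak-side and 9.42% of control-side reads.

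The deposited fold divides an island's peak-side reads by its control-side reads after the authors scaled the latter by 0.345. Its median was 1.96 (interquartile range 1.71 to 2.24) in the read-rich islands and 2.01 (1.61 to 2.62) in all islands. Intervals printed after a fold are exact (Clopper-Pearson) 95% intervals from the read counts, and they cover counting error only, since reads that carry no molecular identifier can be copies of 1 molecule. With more reads the fold of 1 island is better known. The upper bound was a median of 1.99 times the lower one in the read-rich islands and 3.75 times in all. An FDR under 0.05 in the authors' deposited table makes an island called here, which was so for 599 read-rich islands (97.2%), beside 82.3% of all islands. Since peak-side reads enter both the rule and the call, nothing is read from that difference.

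**Figure D1:**
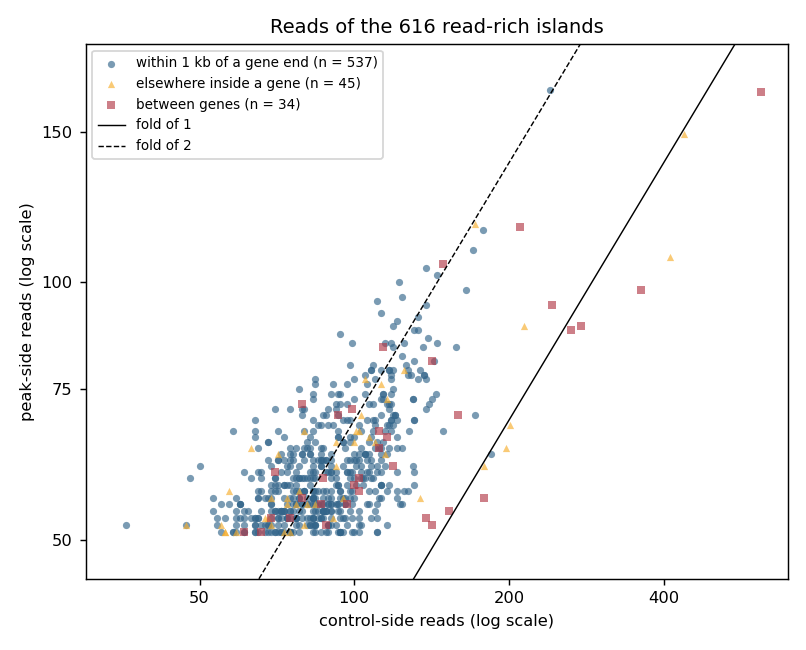
Peak-side reads (vertical, log scale) against control-side reads (horizontal, log scale) of the 616 read-rich islands, by their place relative to protein-coding genes, with lines at a fold of 1 and 2. Islands within 1 kb of a gene end (circles) gather around the line for a fold of 2, and of the 11 islands with a fold under 1, right of the solid line, 10 lie inside genes (triangles) or between them (squares).

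Of the 616 read-rich islands, 537 (87.2%) were at a gene end, meaning at most 1 kb from either end of a protein-coding gene. A further 45 (7.31%) were inside a gene away from its ends and 34 (5.52%) were between genes. Of the other 15965 islands, 54.5%, 25% and 20.5% were in these places. The place relative to genes was not part of the rule. Below 4 kb, the share at a gene end was 32.7% with 8 to 15 reads, 67.1% with 16 to 30 reads and 85.8% with 31 to 50 reads, so that most of the rise came before the lower limit of the rule. Above that limit it fell back, from 88.4% of the 544 islands with 51 to 75 reads to 83.6% of the 61 with 76 to 100 and to 5 of the 11 (45.5%) with over 100 reads. None of the 8 islands under 4 kb with over 200 reads (253 to 18039) lay at a gene end, and 7 of them lay between genes. Islands of 4 kb or wider with 51 to 200 reads lay at a gene end in 83.2% of cases (n = 208).

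**Figure D2:**
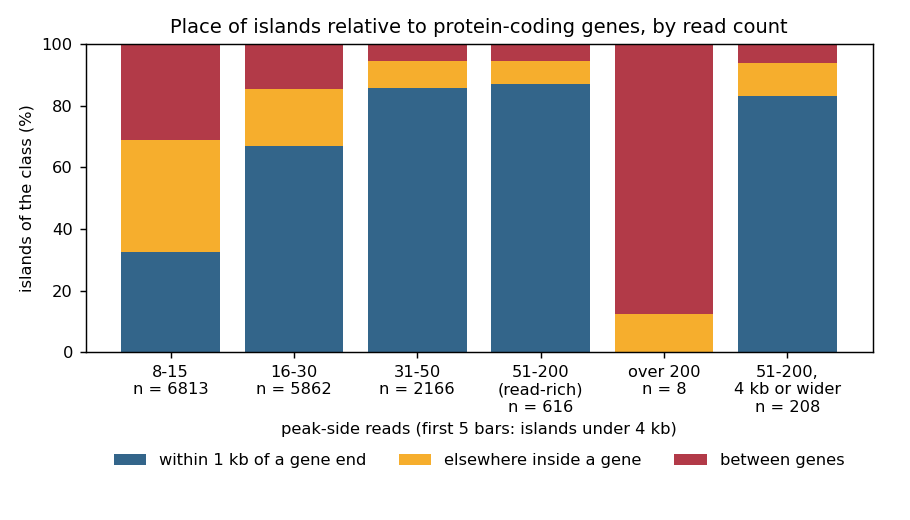
Share of islands (vertical, %) within 1 kb of a gene end, elsewhere inside a gene and between genes, by peak-side reads (horizontal). The gene-end share is 32.7%, 67.1%, 85.8% and 87.2% in the first 4 bars and 0 in the 8 islands with over 200 reads, and it is 83.2% in islands of 4 kb or wider with 51 to 200 reads.

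A wide island reaches a gene end more easily, so widths were set apart. Among read-rich islands the gene-end share was 77.5% under 1600 bp (n = 71), 90.1% at 1600 to 2400 bp (n = 243) and 87.1% at 2600 to 3800 bp (n = 302). Of other islands of the same widths, 2884 of 5772, 57.6% and 54.8% lay there. By the middle of the island, 78.7% of read-rich and 46.7% of other islands lay within 1 kb of a gene end. The other islands here include those of 4 kb or wider, with 33.2%. In the same order of widths as above, the shares by the middle were 74.6%, 85.2% and 74.5% of read-rich islands. They were 47.2%, 52.4% and 40.8% of other islands.

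The limits of the rule did not mark a step in place. The 47 read-rich islands with exactly 51 reads lay at a gene end in 85.1% of cases, and the 39 islands under 4 kb with 50 reads in 84.6%. The former include islands at Clasp1, a microtubule plus-end protein gene (51 peak-side and 70 control-side reads), and Cited2, a coactivator-binding protein gene (51 and 102 reads). The latter include 1 at Per2, a clock repressor gene (50 and 80 reads). The 30 read-rich islands 3800 bp wide lay at a gene end in 86.7% of cases, and the 22 islands of 4000 bp with 51 to 200 reads in 86.4%.

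Gene ends met by the islands were mostly transcription starts. Of the 537 gene-end islands, 457 (85.1%) contained an annotated start from the RefSeq promoter table. That table holds 600 of the 702 genes with an end within 1 kb of a read-rich island. Starts of the other genes are missed here and in the counts of head-to-head pairs below. In the 321 read-rich islands with exactly 1 start, a median of 1107 bp lay upstream of it (interquartile range 737 to 1580) and 1146 bp downstream (799 to 1574), and 50.5% reached further downstream than upstream. Islands under 4 kb with 8 to 50 reads reached 697 bp upstream and 907 bp downstream, with 60.7% longer downstream. Islands of 4 kb or wider reached 2088 and 2599 bp, with 58.7% longer downstream. The read-rich islands were thus close to even around the start, while both other classes leaned into the gene. Islands just below the read limit, and wide islands with as many reads, were not set apart here. Whether the evenness is particular to read-rich islands was therefore not tested.

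**Figure D3:**
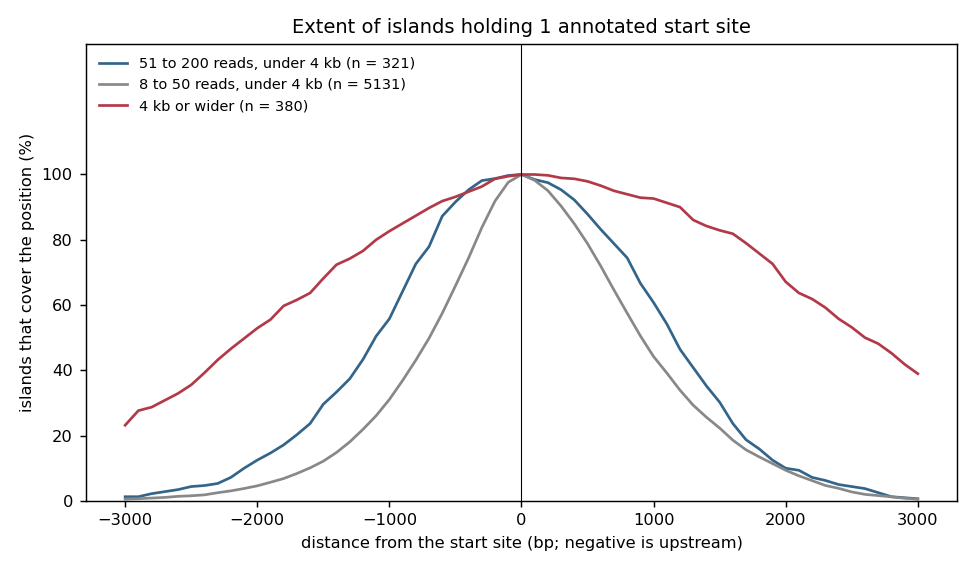
Share of islands covering each position (vertical, %) by distance from the single annotated start they hold (horizontal, bp, negative upstream), for 321 read-rich islands, 5131 islands under 4 kb with fewer reads and 380 islands of 4 kb or wider. The read-rich curve is nearly even on both sides of 0, with medians of 1107 bp upstream and 1146 bp downstream.

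Ends of 2 or more protein-coding genes lay within 1 kb of 161 read-rich islands (26.1%), against 11.6% of all islands, 22.0% of islands under 4 kb with 31 to 50 reads and 24.0% of those of 4 kb or wider with 51 to 200 reads. Head-to-head starts lay inside 89 read-rich islands (14.4%), against 4.22% of all islands and 10.1% of islands under 4 kb with 31 to 50 reads. The starts of these pairs were a median of 312 bp apart (interquartile range 168 to 609), and 42 pairs were within 300 bp. Wider islands can hold more starts, and of islands of 4 kb or wider with 51 to 200 reads 8.65% held such a pair.

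The head-to-head islands named here were chosen after their values were seen. The island between Atm, the kinase that signals DNA breaks, and Npat, a coactivator of histone genes (chr9:53535601-53537600), had 76 peak-side and 84 control-side reads, for a fold of 2.62 (1.90 to 3.62), with 376 bp between the starts. The island of Brca1, a gene of homologous recombination, and Nbr1, an autophagy receptor gene (chr11:101550201-101553200), had 54 and 73 reads, for a fold of 2.15 (1.48 to 3.09) over 152 bp. The island of Trp53, which encodes p53, and Wrap53, which encodes a telomerase assembly protein (chr11:69578801-69582200), had 52 and 89 reads, for a fold of 1.69 (1.18 to 2.41) over 109 bp. The interval of the Trp53 island overlaps those of the Atm and Brca1 islands, and their folds were not tested against each other.

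Hspd1 and Hspe1, the chaperonin pair whose shared promoter is printed above, had 62 and 108 reads, for a fold of 1.67 (1.20 to 2.30), with starts 216 bp apart. Nup98, a nuclear pore gene, and Pgap2, a gene of GPI anchor processing, had starts 7 bp apart and 62 and 76 reads (fold 2.37, 1.66 to 3.35). Nfya, which encodes a subunit of NF-Y, and Oard1, an ADP-ribose hydrolase gene, had 85 and 125 reads (fold 1.97, 1.48 to 2.62), with starts 180 bp apart. The Cep57 and Fam76b pair had the most reads of the head-to-head islands named here, 96 and 124 (fold 2.25, 1.70 to 2.96), and its starts were 609 bp apart.

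The promoters at read-rich islands were rich in GC and CpG. Of 702 genes with an end within 1 kb of a read-rich island, 600 matched the promoter table, with 792 windows of 300 bases (250 before and 50 after a start). The median GC content of these windows was 64.3%, against 61.0% at genes with other islands only, 50.7% at genes with no island at an end and 56.3% over the whole table. The median ratio of observed to expected CpG was 0.832, against 0.770, 0.276 and 0.567 in the same order. A ratio above 0.6, a usual mark of a CpG island, was found in 81.2%, 72.8%, 22.6% and 47.6% of windows. Values were close in islands with somewhat fewer reads. Windows whole within a read-rich island had a median CpG ratio of 0.861, with 92.4% above 0.6, and windows whole within an island under 4 kb with 31 to 50 reads had 0.862, with 90.9% above 0.6.

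An SP/KLF match was in 59.1% of windows at read-rich islands, 47.3% at other islands only, 20.0% with no island and 33.9% of all windows. An NF-Y match was in 14.0%, 9.94%, 6.24% and 8.21%. ETS matches were in 17.6%, 19.1%, 4.42% and 11.6%, so they were no more frequent at read-rich than at other islands, and the same holds for E-box matches (9.72% and 10.3%, with 7.84% of all windows) and YY1 matches (2.90% and 3.22%, with 1.83% of all). NRF1 matches were in 7.32% at read-rich islands, 6.78% at other islands and 4.44% of all windows, and CREB/ATF matches in 3.79%, 3.31% and 2.23%. In windows whole within a read-rich island, SP/KLF was in 65.04% and NF-Y in 14.96%. In windows whole within an island under 4 kb with 31 to 50 reads, they were in 59.48% and 12.62%. The other motifs here were more frequent in the latter windows. ETS was in 22.3% against 18.8%, NRF1 in 9.19% against 7.91% and CREB/ATF in 5.10% against 4.03%. E-box was in 11.4% against 9.64% and YY1 in 3.71% against 3.02%. GC content moves with these motifs, and its part in the shares was not tested.

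Letters of TATA boxes and of factors that direct lymphoid programs were less frequent at read-rich islands than in the whole table. A TATA box match was in 4.67% of windows at read-rich islands, against 12.6% of all windows and 18.4% with no island. The AP-1 motif was in 3.54% against 6.99% of all windows, RUNX in 2.15% against 4.71%, and TCF/LEF, the motif of the family of TCF-1, in 1.64% against 3.22%. IRF (5.43% against 8.15%), STAT (5.68% against 7.69%), ROR (1.89% against 2.32%) and NF-kB (0.884% against 1.28%) matches were lower as well. At genes with other islands only, TCF/LEF was in 2.63%, RUNX in 3.72% and AP-1 in 4.31% of windows, between both values. ROR (1.83% there) and NF-kB (1.32% there) were not between them. Windows whole within a read-rich island were also set beside those whole within an island under 4 kb with 31 to 50 reads. The former had fewer matches for the TATA box (3.60% against 4.33%), RUNX (1.73% against 3%) and TCF/LEF (1.44% against 1.67%). STAT (5.18% against 5.48%) and NF-kB (1.15% against 1.19%) were lower too. AP-1 (3.17% against 2.86%), IRF (4.89% against 4.76%) and ROR (2.16% against 1.38%) were not. All of these motifs hold more A and T than the SP/KLF motif does, and the windows at read-rich islands hold less, so composition and motif cannot be told apart here.

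**Figure D4:**
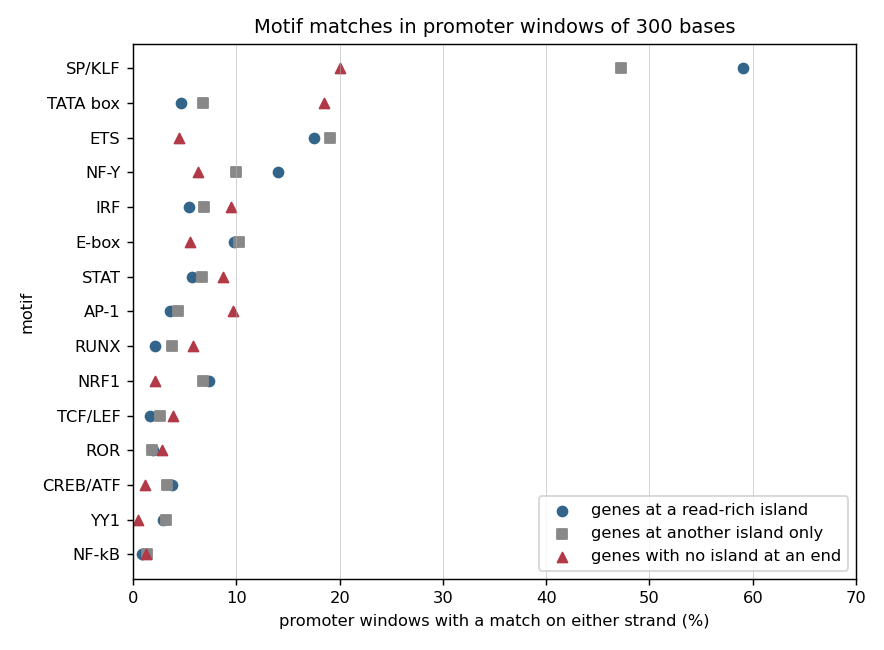
Share of 300-base promoter windows with a match to each of 15 motifs on either strand (horizontal, %), for genes at a read-rich island (circles), at another island only (squares) and with no island at an end (triangles). SP/KLF (59.1%) and NF-Y (14.0%) are highest at read-rich islands, and the TATA box (4.67%) is lowest there.

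Heading the islands by peak-side reads was one at the ends of the predicted genes Gm20783 and LOC108167694 (chr9:124422601-124426400), with 168 and 241 reads, for a fold of 2.02 (1.65 to 2.47). Among gene-end islands it was followed by that of Dnpep (115 and 178 reads, fold 1.87, 1.47 to 2.38) and that of Hspa8, the constitutive Hsc70 chaperone gene (109 and 170 reads, fold 1.86, 1.45 to 2.38). Nr1d1, which encodes the clock repressor REV-ERB alpha, had 104 and 138 reads (fold 2.19, 1.68 to 2.84). Ell, an elongation factor gene, had 102 and 145 reads (fold 2.04, 1.57 to 2.65), and Sp4, a member of the SP family, had 100 and 122 (fold 2.38, 1.81 to 3.12). The intervals of these 6 islands overlap each other.

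Some genes of the general promoter-binding factors had read-rich islands themselves, and those named here were picked after their values were seen. Others, such as Nrf1, Nfyb and Nfyc, had none. The genes of these families were not counted, so no share is given. Sp1 had 77 and 138 reads (fold 1.62, 1.21 to 2.15), Sp3 had 60 and 113 (fold 1.54, 1.11 to 2.12) and Yy1 had 74 and 144 (fold 1.49, 1.11 to 1.99). Sp2 had an island inside the gene with 51 and 75 reads (fold 1.97, 1.35 to 2.85). The intervals of these islands overlap those of the Sp4 and Nfya islands, and their folds were not tested against each other.

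The largest folds were at gene ends for 5 of the 6 highest. Camkk1, a kinase gene of calcium signalling, had 52 and 36 reads, for a fold of 4.19 (2.69 to 6.60). It was followed by Sptlc2, a subunit gene of the enzyme that begins sphingolipid synthesis (59 and 48 reads, fold 3.57, 2.39 to 5.33), and Fbxo27, an F-box protein gene (61 and 50 reads, fold 3.54, 2.39 to 5.25). Zfp78, a zinc finger gene, had a fold of 3.35 (2.32 to 4.85). Ift27, a gene of intraflagellar transport, and Kdm4c, a histone demethylase gene whose island lay inside it, had 52 and 47 reads each (fold 3.21, 2.12 to 4.87). All 6 had control-side counts under 60, below the median of 89, as such folds require at these peak-side counts.

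Islands with fewer peak-side reads than control-side reads after the deposited scaling lay mostly away from gene ends. A fold under 1 was found in 11 read-rich islands, of which 1 lay at a gene end, 5 inside genes and 5 between genes. Their median width was 1000 bp, their median density was 104 peak-side reads per kb and their median control-side count was 264. The largest was on chromosome 11 (chr11:109010601-109012200), with no protein-coding gene end within 50 kb, 167 and 618 reads, for a fold of 0.784 (0.657 to 0.931). Inside Cdk8, the Mediator kinase gene (chr5:146260201-146261600), 149 and 439 reads gave a fold of 0.984 (0.812 to 1.19). Inside Filip1l, a filamin-interacting protein gene (chr16:57390801-57391800), 107 and 411 reads gave 0.755 (0.605 to 0.936). The 1 at a gene end, near Lars2, a mitochondrial leucyl-tRNA synthetase gene, was 600 bp wide and had 63 and 185 reads (fold 0.988, 0.730 to 1.32). Of the 17 read-rich islands that were not called, 2 lay at a gene end.

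The densest island was also narrow. It was 1 window of 200 bp (chr9:24542001-24542200), 14847 bp from an end of Dpy19l2, a gene of sperm head formation, with 105 and 149 reads or 525 per kb (fold 2.04, 1.58 to 2.64). An island between genes on chromosome 3 (chr3:5860401-5861000) had 98 and 362 reads or 163 per kb (fold 0.785, 0.622 to 0.984). An island near Tcp10c, a testis gene, had 54 and 153 reads in 400 bp, and 1 inside Aida near Brox, an ESCRT-associated gene, had 113 peak-side reads per kb. Of the 8 densest islands, 7 had folds from 0.755 to 1.02, and the Dpy19l2 island was the exception. The repeat content and mappability of these windows were not analysed here.

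Of the 45 islands inside genes, 31 contained an annotated start, so they lay at alternative or inner promoters rather than at an outer gene end. Examples are Iffo2, an intermediate filament family gene (77 and 105 reads, fold 2.13, 1.56 to 2.88), and Rbpj, the DNA-binding partner of Notch (56 and 95 reads, fold 1.71, 1.21 to 2.4). Nfkb2, which encodes the p100 precursor of the alternative NF-kB pathway, had such an island with 65 and 92 reads (fold 2.05, 1.47 to 2.85). Hdac4, a histone deacetylase gene, had 56 and 134 reads and a fold whose interval spanned 1 (1.21, 0.871 to 1.67). The median fold of the 45 islands was 1.97, and 39 (86.7%) were called, beside 82.3% of all islands.

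Of the 34 islands between genes, 16 lay within 1 kb of an annotated long noncoding RNA and 2 within 1 kb of tRNA genes. The island of Chaserr, a noncoding RNA next to the chromatin remodeler gene Chd2 (chr7:73556201-73559600), had 70 and 93 reads (fold 2.18, 1.58 to 3.01). That of Mir22hg, the host of a microRNA, near Wdr81 (chr11:75459201-75461800) had 52 and 88 (fold 1.71, 1.19 to 2.44). An island near B4galnt2 with 2 noncoding RNAs and a glutamine tRNA gene had 72 and 79 reads (fold 2.64, 1.89 to 3.69). The median fold between genes was 1.67, and 22 islands lay over 10 kb from a protein-coding gene end. Of the 34 islands, 25 (73.5%) were called, beside 82.3% of all islands. Nothing is read from such shares of called islands, since peak-side reads enter both the rule and the call. A remaining 18 had none of these annotations nearby.

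The read-rich islands also held the sequences of 11 mature microRNAs, in 8 islands. One is miR-484, in the 1000 bp island at the start of Marf1, an RNA regulator gene (chr16:14159201-14160200, 51 and 64 reads, fold 2.31, 1.57 to 3.39). Its mature sequence in RefSeq, with the seed (bases 2 to 8) in capitals, lies at chr16:14159630-14159651 on the plus strand.
mmu-miR-484: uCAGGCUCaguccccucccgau

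The islands were assigned to 771 protein-coding genes, which is 3.52% of 21887 and 6.44% of the 11972 genes assigned any island. Of the islands, 447 had 1 gene, 161 had 2 or more and 8 had none within 50 kb. Spen, a transcriptional repressor gene, had 2 read-rich islands, 1 at its end (53 and 87 reads) and 1 beyond it (55 and 97 reads). Csf2ra, a receptor subunit gene for GM-CSF, had 2 as well, both between genes, with intervals that spanned 1 (52 and 142 reads, 1.06, 0.758 to 1.47, and 70 and 159 reads, 1.28, 0.95 to 1.70). No read-rich island lay in Tcf7 or within 50 kb of it.

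Genes that define LTi cells had islands, but none of this kind. Of 16 LTi and ILC3 markers 15 had an island and 0 had a read-rich one, and 5 had an island of 4 kb or wider. The island of Id2, the inhibitor needed by all innate lymphoid cells, had 58 and 107 reads and was 4200 bp wide, just over the width limit. Ltb, a lymphotoxin subunit gene, had 36 and 56 reads over 4400 bp. A read-rich island was assigned to 6.44% of genes with any island, and a count of 0 among 15 cannot be told apart from that share.

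Several other lists of immune genes also had few or no read-rich islands. The lists of cytokine receptor, STAT and SOCS genes and of NF-kB and TNF receptor signalling genes, described further below, had more. Over genes with any island, their shares were 15.4% (6 of 39) and 11.1% (4 of 36), beside 6.44% of all such genes. Both shares rest on few genes, and their differences from 6.44% were not tested. None of 29 cytokine and TNF ligand genes (19 with an island), 27 homing genes (23 with an island) or 16 MHC and antigen presentation genes (15 with an island) had a read-rich island. The sort removed cells with lineage markers, KLRG1, NK1.1 or NKp46. The lists of markers of other cells had 1 gene assigned a read-rich island, Cd79a, a B cell receptor subunit gene. That island (55 and 90 reads, fold 1.77, 1.24 to 2.51) overlaps Arhgef1 and not Cd79a, which only has an end within 1 kb. The B cell list had 5 of 8 genes with any island. The T cell list had 3 of 9 genes with any island, the NK and ILC1 list 2 of 8, the ILC2 list 4 of 6, the myeloid list 3 of 8 and the epithelial and stromal list 5 of 8, with no read-rich island in these. Among 57 lymphoid transcription factor genes 55 had an island and 2 a read-rich one, Bhlhe40 (73 and 114 reads, fold 1.86, 1.37 to 2.51) and Rbpj, while 22 had an island of 4 kb or wider. In the list of AP-1 and immediate early genes, 37 of 38 had any island and 3 a read-rich one, namely Per1 (60 and 90 reads), Egr1 (54 and 79) and Atf4 (53 and 85), while 23 had an island of 4 kb or wider.

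The shares of the remaining lists are set beside the 3.52% of all genes and, over genes with any island, the 6.44%. Over genes with any island they were 15.4% for cytokine receptor, STAT and SOCS genes, 13.3% for chaperones, 13.2% for chromatin modifiers and 12.8% for cell cycle genes. They were 7.69% for Wnt pathway genes, 8.33% for splicing genes, 4.65% for glycolysis and mitochondrial energy and 3.85% for apoptosis, so several lists were near or below the share of all genes. Each share rests on few genes, and no difference from 6.44% was tested. Of 46 cytokine receptor, STAT and SOCS genes 6 (13.0%) had a read-rich island. They include Ifngr1, the ligand-binding chain of the interferon-gamma receptor (69 and 110 reads, fold 1.82, 1.33 to 2.48), Socs3, a feedback inhibitor (62 and 90, fold 2.00, 1.42 to 2.79), and Stat3, which signals for interleukin-23 and interleukin-6 (60 and 111, fold 1.57, 1.13 to 2.17). Of 36 NF-kB and TNF receptor signalling genes 4 (11.1%) had one. Besides Nfkb2 these are Map3k14, which encodes the NIK kinase (66 and 93 reads, fold 2.06, 1.48 to 2.85), Relb, the partner of p100 (57 and 90, fold 1.84, 1.29 to 2.59), and Cyld, a deubiquitinase that restrains the pathway (58 and 71, fold 2.37, 1.65 to 3.40). Map3k14, Nfkb2 and Relb belong to the alternative NF-kB pathway, which acts downstream of the lymphotoxin beta receptor, and their 3 fold intervals overlap.

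Of 29 Wnt pathway genes 2 (6.90%) had one, Gsk3b (85 and 145 reads, fold 1.70, 1.29 to 2.24) and Tle4, a corepressor of TCF factors (67 and 115, fold 1.69, 1.23 to 2.30). Of 41 cell cycle genes 5 (12.2%) had one, among them Cdkn2d, which encodes the inhibitor p19 (77 and 84, fold 2.66, 1.93 to 3.67), and E2f3, a driver of S phase entry (75 and 119, fold 1.83, 1.35 to 2.46). The apoptosis list had 1 of 28, Apaf1, the scaffold of the apoptosome (54 and 98, fold 1.60, 1.12 to 2.25).

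Of 78 chromatin and histone modifier genes 10 (12.8%) had a read-rich island, among them the acetyltransferase gene Kat6b (84 and 119 reads, fold 2.05, 1.53 to 2.73) and Kmt2e (65 and 98, fold 1.92, 1.38 to 2.66). Setd5 had 67 and 149 reads and an interval that spanned 1 (1.30, 0.963 to 1.75). Of 90 heat shock and chaperone genes 10 (11.1%) had one, led by Hspa8, with Dnajb1, an Hsp40 gene (74 and 93, fold 2.31, 1.68 to 3.17), and Hsp90b1, the chaperone of the endoplasmic reticulum (65 and 81, fold 2.33, 1.65 to 3.27). That list was built in part by symbol and also takes in Cct8l1, a look-alike.

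Of 72 translation factor genes 7 (9.72%) had a read-rich island, led by Eif5a (94 and 138 reads, fold 1.98, 1.5 to 2.59). Of 178 splicing and RNA-binding genes 12 (6.74%) had one, among them Khdrbs1, which encodes Sam68 (87 and 94, fold 2.68, 1.98 to 3.63), and Hnrnpa1 (72 and 94, fold 2.22, 1.61 to 3.05). Of 214 ubiquitin system genes 17 (7.94%) had one, led by Ube2d3, a conjugating enzyme gene (91 and 133, fold 1.98, 1.5 to 2.61). Of 52 actin and small GTPase genes 6 (11.5%) had one, among them Cfl1, which encodes cofilin (56 and 96, fold 1.69, 1.19 to 2.38). Actr3, an Arp2/3 subunit gene, had 58 and 131 reads with an interval that spanned 1 (1.28, 0.926 to 1.76).

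The shares of ribosomal, histone and Zfp-named genes were near that of all genes. None of 51 proteasome genes had a read-rich island, although 46 had an island. In the list of ribosomal protein symbols 3 genes (2.97%) had one, and 1 of these is Rps6ka5, which encodes a kinase. The other 2 were Rpl15, in an island shared with Nkiras1 (53 and 59 reads, fold 2.61, 1.76 to 3.84), and Rps19 (52 and 89, fold 1.69, 1.18 to 2.41). Of 102 histone genes 3 had one, all in 1 island at H1f1, H3c1 and H4c1 (55 and 86, fold 1.85, 1.30 to 2.63). Of 400 Zfp-named genes 12 (3.0%) had one, and of 43 genes of glycolysis and mitochondrial energy 2, Pfkl (54 and 69 reads) and Pgam1 (52 and 68), both of glycolysis. Over the 29 lists, 112 of 1823 entries had a read-rich island and 1451 had any.

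**Figure D5:**
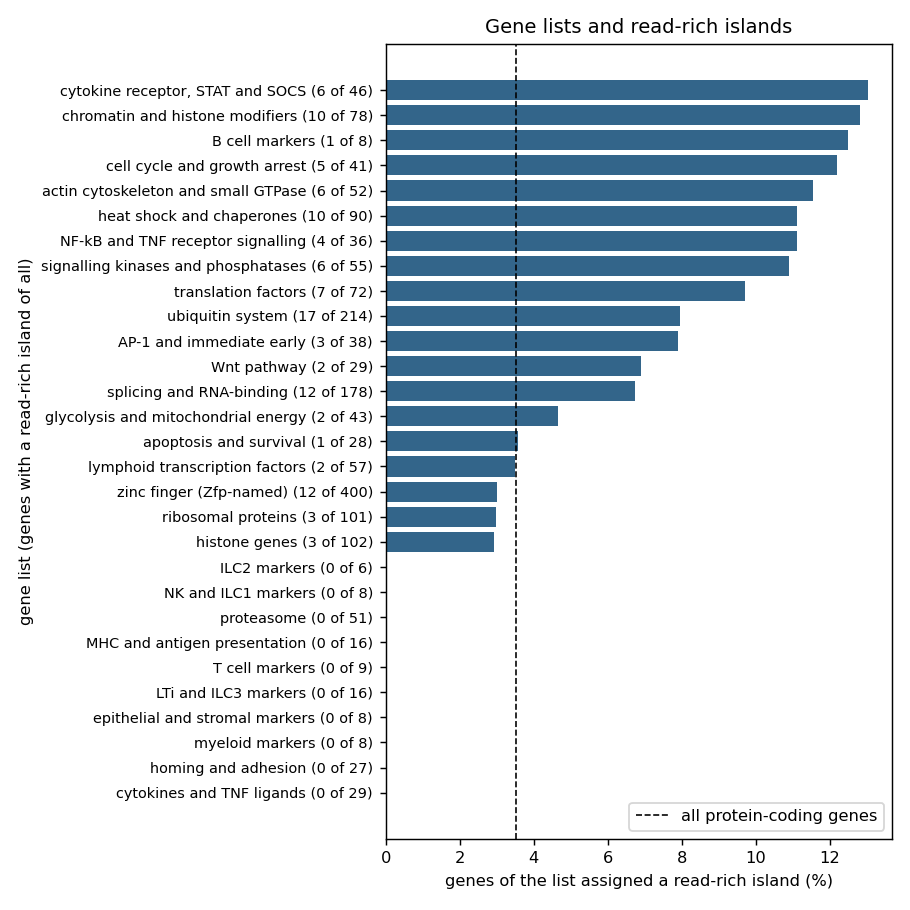
Share of the genes of each of 29 lists assigned a read-rich island (horizontal, %), with the number of genes in brackets and a dashed line at the 3.52% of all protein-coding genes. Cytokine receptor, chromatin and chaperone genes lie above the line, ribosomal, histone and Zfp-named genes near it, and 10 lists, among them proteasome genes and LTi markers, are at 0.

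Circadian clock genes recurred among the islands and were put into a list after their values were seen, so that their count is no evidence of its own. Of 26 clock genes 22 had an island and 7 had a read-rich one. They are Nr1d1, Per1, Bhlhe40, Cipc (61 and 78 reads, fold 2.27, 1.60 to 3.21), Nr1d2, which encodes REV-ERB beta (73 and 130, fold 1.63, 1.21 to 2.19), and, inside the genes, Tef (65 and 100, fold 1.89, 1.36 to 2.60) and Arntl, which encodes the activator BMAL1 (57 and 78, fold 2.12, 1.48 to 3.02). The Per1 island (chr11:69094401-69095600) is 1200 bp wide and is followed, after a gap, by a 4000 bp island inside the gene (chr11:69096801-69100800) with 103 and 122 reads, for a fold of 2.45 (1.87 to 3.21), just outside the width limit.

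No read-rich island lay on a sex chromosome. Of 16332 autosomal islands 616 (3.77%) were read-rich, with 2.13% to 5.48% on single autosomes. On X, 0 of 239 islands were. Peak-side reads are part of the rule and the islands are not replicates, so this difference was not tested. Gene-end islands had a median of 16 peak-side and 23 control-side reads on X, against 23 and 38 on autosomes, although 73.2% of the X islands lay at a gene end. The X island closest to the read limit from below was that of Yipf6, a Golgi membrane protein gene, with 47 and 65 reads (fold 2.10, 1.41 to 3.10). Copy number of X in the sorted cells was not analysed here, and its part in the lower counts was not tested.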

How the data were processed

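DNase-seq libraries (2 Ctrl, 2 Tcf7-KO) were analysed through 1 deposited table. Per the submitters' processing notes, Bowtie2 2.4.2, SICER 2.0 and mm10 were used. Per the file headers, the table gives each island's position, deposited peak-side read counts and control-side read coverage (both whole reads, not normalized), a p-value, a fold (ratio) and an FDR (q-value) by the authors. How libraries were pooled and which stand on each side is not given in the sources used here. Of 16584 islands, 3 on mitochondrial DNA were left out. Positions are printed 1-based.

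The deposited fold was recomputed from both counts within 1e-4 for 16570 of 16581 islands, and the deposited FDR as Poisson tails adjusted by Benjamini-Hochberg (13647 islands called either way). Islands went to every RefSeq protein-coding gene with an end within 1 kb, otherwise to the nearest end within 50 kb. Python 3.11.15, pandas 2.3.3 and scipy 1.17.1 were used, and the code was tested on simulated data. The text names islands with most reads, most reads per kb, the largest or smallest folds, and in each list up to 4 with most reads. Members and lists were chosen with earlier results of these data known, and 4 lists (circadian clock, mitochondrial ribosomal proteins, Ppp- and Ppm-named phosphatases and Rab GTPases) were added after the member genes were seen. Genotypes were not compared, since no column belongs to a library.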

Additional observations from a re-analysis of the deposited data

How the results depend on the processing

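No paired analysis was possible because no column belongs to a library, and so none could be left out. The scaling of the control side decided the folds and calls. Scaled by the reads in all islands (factor 0.661) the median fold was 1.02 and 5.03% of the 616 islands were called, and scaled by the median ratio (0.692) the values were 0.975, on the other side of 1, and 2.44%, in place of 1.96 and 97.2%. Both scalings centre all islands near 1 by construction. A fold under 1 was found in 278 of the 616 islands by the reads in all islands and in 336 by the median ratio. The count of 11 such islands given above thus holds for the deposited scaling only. An FDR under 0.01 left 94.6% called. The share at a gene end was 79.5% with annotated starts only and, an alternative chosen after seeing the data, 78.7% by the middle of the island, in place of 87.2%. Keeping islands with over 100 reads left 11 islands, with 45.5% at a gene end, a median fold of 1.87, a median of 178 control-side reads, 72.5 peak-side reads per kb and a promoter GC content of 60.0%. Under 3000 bp the density was 29.4 reads per kb. In promoter windows whole within an island the GC content was 65.7% and 86.3% had any motif, in place of 64.3% and 83.3%. A width limit of 3000 bp gave 423 islands, and one wider than 4 kb gave 707, in place of 616. Depth limits the fold of a single island to about a factor of 1.99 between its bounds.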

Other observations

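Lists added after the member genes were seen held further groups. Of 78 mitochondrial ribosomal protein genes 7 (8.97%) had a read-rich island, among them Mrpl41 (67 and 71 reads, fold 2.74, 1.93 to 3.88) and Mrpl17 (68 and 85, fold 2.32, 1.66 to 3.23). Of 89 Ppp- and Ppm-named genes, mostly of protein phosphatases and their regulators, 11 (12.4%) had one. They include Ppm1d, which encodes the phosphatase WIP1 that ends p53 signalling (64 and 65 reads, fold 2.86, 1.99 to 4.10), Ppp2ca, the catalytic subunit of PP2A (61 and 74, fold 2.39, 1.68 to 3.40), and Ppm1b (89 and 119, fold 2.17, 1.63 to 2.88). Of 69 genes with Rab symbols, mostly GTPases of vesicle traffic, 8 (11.6%) had one, among them Rab1a (67 and 83, fold 2.34, 1.67 to 3.27), Rab14 (60 and 74, fold 2.35, 1.64 to 3.35) and Rab33b (57 and 65, fold 2.54, 1.75 to 3.69). Since these lists were drawn up with the islands in view, their counts are descriptions beside the 3.52% of all genes.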
